A study of Mus musculus with 4 samples.

Results

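The 6 genes described here are the keratins *KRT5* and *KRT14*, the collagens *COL10A1* and *COL11A1*, and the matrix metalloproteinases *MMP-9* and *MMP-10*, out of 98 genes measured by RT-qPCR in whole mouse lungs. They were taken by name from the gene list of the study, not by their values, and all 6 were found. The numbered assay of each gene was identified by its 3 fold changes, which matched 1 assay and no other. In RT-qPCR the threshold cycle (Ct) is the cycle at which a product becomes detectable, so a lower Ct means more transcript and 1 cycle stands for about a 2-fold difference.

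Female C57BL/6J mice were injected in the lung with LLC cells, a mouse Lewis lung carcinoma line implanted in the organ it came from, or with vehicle. Mice then received 10 µg of recombinant mouse S100A8 or its solvent HBSS by the intranasal route, on Day 3, on Day 6 and on Day 9, and the lungs were taken on Day 10. The 2 groups without cancer cells were HBSS + vehicle and S100A8 + vehicle. Those with cancer cells were HBSS + LLC and S100A8 + LLC, and the HBSS groups were given no S100A8. Values listed without group names follow this order. The authors averaged the Ct over 4 to 5 mice and deposited 1 mean per gene and group. No SD, n or test can therefore be given, no value below can be set against the spread between mice, and differences are described by their size. A fold change of more than 2 either way is used as the threshold throughout.

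Keratins 5 and 14 pair as type II and type I chains in the intermediate filaments of basal epithelial cells, which in the airway act as progenitors. Collagen X, encoded by *COL10A1*, is made mainly by hypertrophic cartilage cells, and *COL11A1* encodes a chain of the fibril-forming collagen XI. Both are also studied in the stroma of tumors. Matrix metalloproteinases are zinc-dependent enzymes that cut extracellular matrix. MMP-9, or gelatinase B, degrades denatured collagen and collagen IV and is stored in neutrophil granules. MMP-10, or stromelysin-2, has a broad range of matrix substrates and can activate other metalloproteinases. In a whole lung, fewer cells of a type and less transcript per cell cannot be told apart.

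Levels are given as Ct and as ΔCt, the Ct after subtraction of the average of both housekeeping assays in that group, where a higher ΔCt means less transcript. The mean of the housekeeping assays was 18.3 for HBSS + vehicle lungs, 19.7 for S100A8 + vehicle lungs, 18.0 for HBSS + LLC lungs and 19.3 for S100A8 + LLC lungs. The 2 assays moved in opposite directions with LLC alone. From HBSS + vehicle to HBSS + LLC, the Ct of the first rose by 1.26 cycles and that of the second fell by 1.94. Every fold change in HBSS + LLC therefore depends on the reference, and members are given under 4 references where these change a call or a direction (the mean of both housekeeping assays, each alone, and the median Ct of the 98 genes). The study set 38 cycles as its limit. A mean Ct above 30 cycles, where few template molecules are detected, was found for 2 members in HBSS + vehicle lungs, for 4 with S100A8 alone, for 3 with LLC alone and for 2 with both.

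*KRT5* had a Ct of 25.9 for HBSS + vehicle lungs, 30.5 for S100A8 + vehicle lungs, 28.7 for HBSS + LLC lungs and 29.1 for S100A8 + LLC lungs. Its ΔCt was 7.62, 10.7, 10.7 and 9.84 in the same order. HBSS + vehicle thus stood apart from the other groups as the highest level of this keratin, and S100A8 + vehicle and HBSS + LLC were the lowest by this reference. Relative to HBSS + vehicle, *KRT5* was 8.57-fold lower in S100A8 + vehicle, 8.63-fold lower in HBSS + LLC and 4.66-fold lower in S100A8 + LLC. It stayed more than 2-fold lower in all 3 groups under each of the 4 references, but their order depended on the reference. Set against the first housekeeping assay, the log2 values were -2.46, -1.51 and -1.48, and against the second they were -3.74, -4.71 and -2.96. Of the genes with a computed fold change, it ranked 4 from the lowest of 97, 3 of 98 and 4 of 98. In the first, *MMP-10* came next at a value that is only a bound, so it may lie below *KRT5*. A rank within a comparison does not depend on the reference.

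*KRT14* had a Ct of 29.4 for HBSS + vehicle lungs, 30.8 for S100A8 + vehicle lungs, 30.8 for HBSS + LLC lungs and 27.8 for S100A8 + LLC lungs, which gave a ΔCt of 11.1, 11.1, 12.8 and 8.51. The type I partner of keratin 5 was thus highest in S100A8 + LLC, and did not share the drop of *KRT5* in S100A8 + vehicle. Against HBSS + vehicle, *KRT14* stood at a log2 value of 0.01 with S100A8 alone, -1.68 with LLC alone and 2.61 with both. The last corresponds to 6.11-fold higher, and the first ranged from -0.63 to 0.65 over the 4 references. Directly against HBSS + LLC, *KRT14* in S100A8 + LLC was 19.6-fold higher and ranked 1 of 98. *KRT5* was 1.85-fold higher in the same comparison, with log2 values from 0.03 to 1.75 over the references. The increase of *KRT14* in S100A8 + LLC passed 2-fold against each of the other 3 groups under each of the 4 references, with log2 values between 1.87 and 5.15. The decrease in HBSS + LLC did not. It was -0.08 on the log2 scale with the first housekeeping assay alone and -3.28 with the second.

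**Figure D1:**
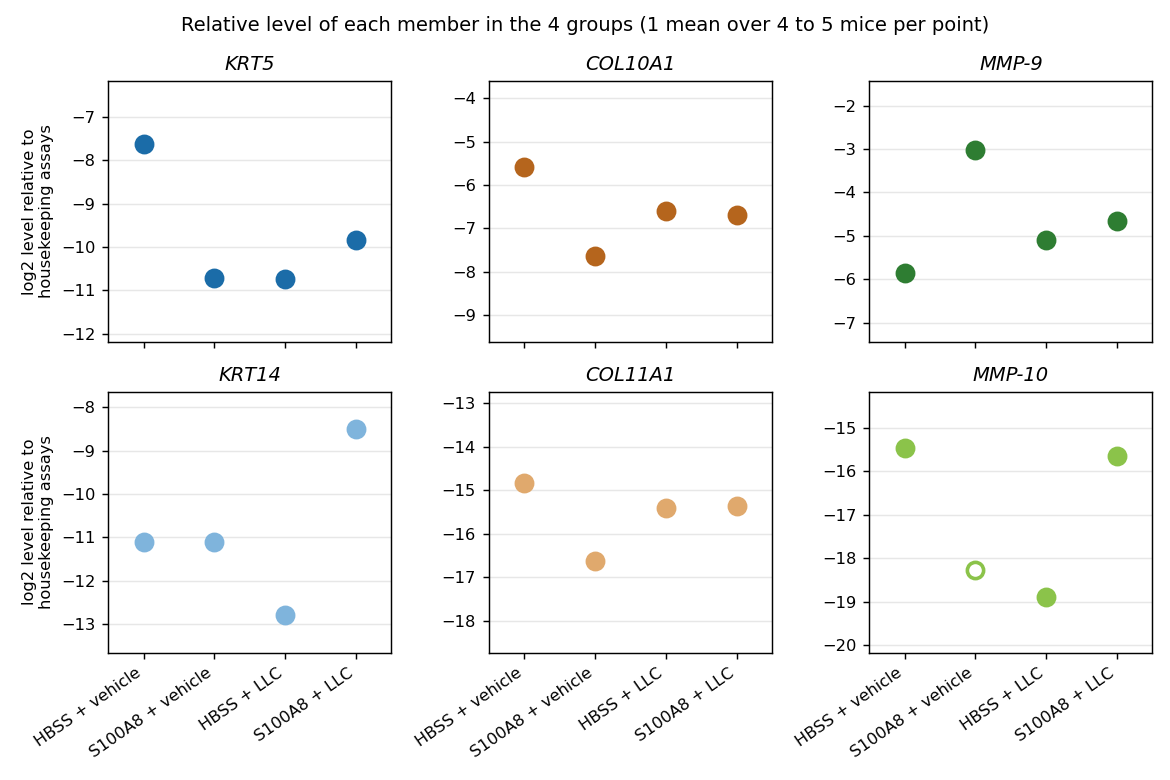
Level of each member relative to the mean of the 2 housekeeping assays, as minus ΔCt on the log2 scale, in the 4 groups. Each point is 1 mean over 4 to 5 mice without an error, every panel spans 6 log2 units, and the open point marks the mean at the limit of 38 cycles. KRT5 is highest in HBSS + vehicle, KRT14 in S100A8 + LLC, and both collagens are highest in HBSS + vehicle and lowest in S100A8 + vehicle.

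The difference in Ct between 2 assays in the same group uses no housekeeping gene. Its size also reflects the efficiency of both assays, so only its movement between groups is described. The Ct of *KRT5* minus that of *KRT14* was -3.49 for HBSS + vehicle lungs, -0.38 for S100A8 + vehicle lungs, -2.06 for HBSS + LLC lungs and 1.34 for S100A8 + LLC lungs. In both S100A8 groups the difference was higher than in either HBSS group, that is, *KRT5* was lower relative to *KRT14*. It spanned 4.83 cycles, or 28.4-fold. Among all 4278 pairs of the 93 panel genes that never reached the limit, 982 spanned as much or more, so a movement of this size was common in the panel.

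*CDH1*, which encodes the epithelial adhesion molecule E-cadherin, was higher than in HBSS + vehicle by 32.7-fold with S100A8 alone, 16.8-fold with LLC alone and 12.3-fold with both, the same 3 groups in which *KRT5* was lower. The Ct of *KRT5* minus that of *CDH1* was 3.54, 11.7, 10.7 and 9.38, so *KRT5* was lower relative to *CDH1* in each of those groups with no reference involved. The mucin gene *MUC1* had log2 values of 0.58, -0.53 and -0.87 against HBSS + vehicle, and over the 4 references the second ranged from -2.13 to 1.07. The summed level of *CDH1* and *MUC1* on the log2 scale was 0.59 for HBSS + vehicle lungs, 2.03 for S100A8 + vehicle lungs, 0.99 for HBSS + LLC lungs and 0.60 for S100A8 + LLC lungs, if both assays are taken as equally efficient. Against HBSS + vehicle, the sum with LLC alone ranged from -1.20 to 2.00 over the 4 references and with S100A8 alone from 0.80 to 2.08. *RAGE* and *AGER*, both names of the receptor for advanced glycation end products, which marks alveolar type I cells, were within 2-fold of HBSS + vehicle in all 3 groups with the mean of both housekeeping assays. With LLC alone, *RAGE* ranged from -1.99 to 1.21 and *AGER* from -2.34 to 0.86 over the references. With S100A8 alone the ranges were 0.26 to 1.54 and 0.23 to 1.51, and with both they were -0.96 to 0.52 and -1.59 to -0.11. Their summed level was 2.89, 3.77, 2.29 and 2.30 in the group order. Whether the proportion of epithelial cells had a part in the keratin values was not tested.

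*COL10A1* had a Ct of 23.9 for HBSS + vehicle lungs, 27.4 for S100A8 + vehicle lungs, 24.6 for HBSS + LLC lungs and 26.0 for S100A8 + LLC lungs. *COL11A1* was a much later signal, at 33.1, 36.4, 33.4 and 34.6 cycles. The ΔCt of *COL10A1* was 5.58, 7.62, 6.61 and 6.68, and that of *COL11A1* was 14.8, 16.6, 15.4 and 15.4. By ΔCt, both collagens were highest in HBSS + vehicle and lowest in S100A8 + vehicle, with the LLC groups between them. In S100A8 + vehicle, *COL10A1* was 4.11-fold and *COL11A1* 3.48-fold lower than in HBSS + vehicle, and both decreases passed 2-fold under each of the 4 references. The late signal limits the second of these. With Ct values capped at 35, so that a later mean counts only as a limit, the log2 value of *COL11A1* there was at most -0.43 in place of -1.80, a limit that does not reach 2-fold.

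With LLC the collagens were nearer to HBSS + vehicle, and the reference decided how near. *COL10A1* was 2.03-fold lower in HBSS + LLC and 2.14-fold lower in S100A8 + LLC. Set against the first housekeeping assay, the log2 values were 0.58 and -0.36, and against the second they were -2.62 and -1.84. For *COL11A1*, the log2 fold change was -0.57 in HBSS + LLC, between -2.17 and 1.03 over the references, and -0.53 in S100A8 + LLC, between -1.27 and 0.21. Between S100A8 + LLC and HBSS + LLC neither collagen passed 2-fold under any of the 4 references. The main log2 values there were -0.08 for *COL10A1* and 0.04 for *COL11A1*. Over the references they ranged from -0.94 to 0.78 and from -0.82 to 0.90, so neither direction was fixed.

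The 2 collagen assays kept a nearly constant distance. The Ct of *COL10A1* minus that of *COL11A1* was -9.25 for HBSS + vehicle lungs, -9.01 for S100A8 + vehicle lungs, -8.80 for HBSS + LLC lungs and -8.68 for S100A8 + LLC lungs. This range of 0.57 cycles, or 1.48-fold, compares with a median range of 2.70 cycles over the same 4278 pairs. Of those pairs, 98 had a range of 0.57 cycles or less. The pairs share genes, so the count is a description and not a test.

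**Figure D2:**
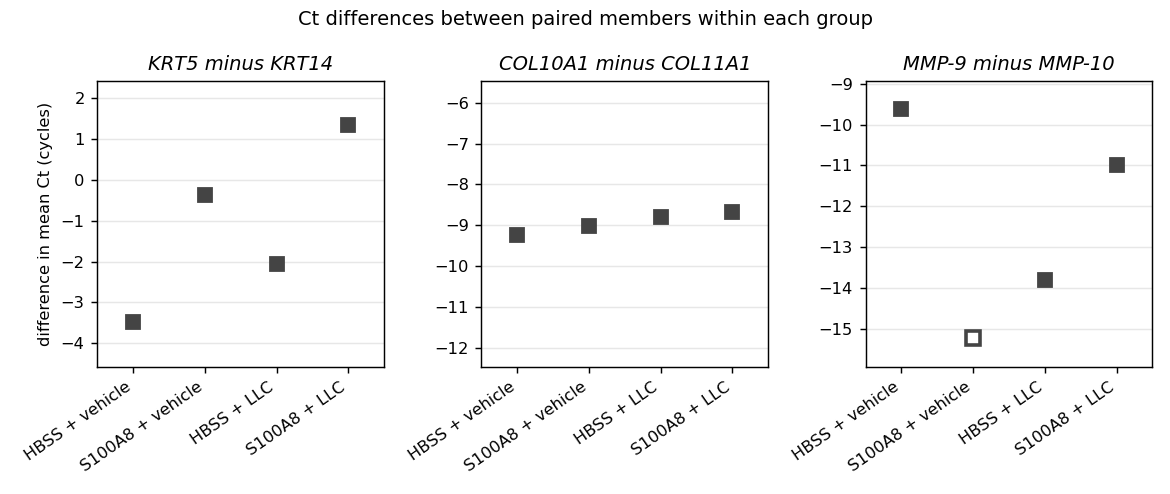
Mean Ct of 1 member minus mean Ct of its pair within each of the 4 groups, in cycles, with no housekeeping gene involved. Every panel spans 7 cycles, and the open square marks the group in which MMP-10 was at the limit of 38 cycles. The collagen pair moves over 0.57 cycles and the keratin pair over 4.83.

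The mouse genes of both collagens have a promoter in the RefSeq table of assembly GRCm38.p6, and it is shown because the measured means of these genes moved together. The last 120 bases before each transcription start are printed 5′ to 3′, both on the plus strand, with capitals for 3 motifs searched on both strands over 250 bases before to 50 after the start. The motifs were a TATA box with the letters TATAAA, an AP-1 motif with the letters TGAGTCA and a RUNX motif with the letters TGTGGT, which do not overlap each other in these windows. Of 32851 promoters of 300 bases, 13.6% hold the first, 5.20% the second and 16.8% the third on either strand. *COL10A1*, at chr10:34389861-34389980, holds TATAAA starting 32 bases before the start. None of the 3 was matched in *COL11A1*, at chr3:114030420-114030539.
COL10A1: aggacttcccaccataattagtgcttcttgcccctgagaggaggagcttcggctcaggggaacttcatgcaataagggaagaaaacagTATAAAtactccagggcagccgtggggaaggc
COL11A1: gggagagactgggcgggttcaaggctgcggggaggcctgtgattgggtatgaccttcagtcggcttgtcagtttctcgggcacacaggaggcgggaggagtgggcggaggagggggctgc

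*MMP-9* had a Ct of 24.1 for HBSS + vehicle lungs, 22.8 for S100A8 + vehicle lungs, 23.0 for HBSS + LLC lungs and 23.9 for S100A8 + LLC lungs, and a ΔCt of 5.84, 3.03, 5.09 and 4.66. The gelatinase was highest in S100A8 + vehicle, at 7.06-fold above HBSS + vehicle and rank 11 of 97, and it was more than 2-fold higher there under each of the 4 references. Above HBSS + vehicle it lay 2.28-fold in S100A8 + LLC and 1.69-fold in HBSS + LLC. The first of these passed 2-fold under 2 of the 4 references, and the second ranged on the log2 scale from -0.84 to 2.36. S100A8 + LLC was 3.10-fold below S100A8 + vehicle, a decrease of more than 2-fold under each reference. Against HBSS + LLC it was 1.35-fold higher, with log2 values from -0.43 to 1.29.

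*S100A8* and *S100A9*, abundant in neutrophils and other myeloid cells, were the markers measured. In S100A8 + vehicle, *S100A8* was 2.30-fold and *S100A9* 2.08-fold above HBSS + vehicle, each past 2-fold under 2 of the 4 references, with log2 values down to 0.56 and 0.42. In S100A8 + LLC, *S100A8* was 1.75-fold higher and *S100A9* 1.91-fold lower. Over the references their log2 values ranged from 0.07 to 1.55 and from -1.67 to -0.19, so both calls depended on the reference. Their summed level on the log2 scale was -0.20 for HBSS + vehicle lungs, 0.92 for S100A8 + vehicle lungs, -0.36 for HBSS + LLC lungs and -0.23 for S100A8 + LLC lungs, again highest in S100A8 + vehicle. Against HBSS + vehicle that sum ranged over the references from 0.47 to 1.75 with S100A8 alone and from -1.76 to 1.44 with LLC alone. The Ct of *MMP-9* minus that of *S100A8* was 4.20, 2.58, 3.59 and 3.82 in the group order, and that of *MMP-9* minus *S100A9* was 4.99, 3.23, 3.85 and 2.87. *MMP-9* was thus higher relative to both markers in each of the other groups than in HBSS + vehicle. The part of myeloid cell numbers in these values was not tested.

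*MMP-10* was the weakest signal of the 6 members. Its Ct was 33.8 for HBSS + vehicle lungs, 38 for S100A8 + vehicle lungs, 36.8 for HBSS + LLC lungs and 34.9 for S100A8 + LLC lungs. The mean of S100A8 + vehicle equals the limit, and whether single mice of the other groups were also at the limit cannot be told from a mean. The ΔCt was 15.5 for HBSS + vehicle lungs, 18.3 or more for S100A8 + vehicle lungs, 18.9 for HBSS + LLC lungs and 15.6 for S100A8 + LLC lungs. HBSS + vehicle and S100A8 + LLC were therefore the groups with more *MMP-10*, and S100A8 or LLC alone those with less.

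Relative to HBSS + vehicle, *MMP-10* was at least 6.96-fold lower in S100A8 + vehicle and 10.7-fold lower in HBSS + LLC, each more than 2-fold under all 4 references. The value with LLC alone ranged from 3.53-fold to 32.4-fold lower over the references and was at least 2.99-fold lower with Ct values capped at 35. In S100A8 + LLC it was 1.13-fold lower, with log2 values between -0.92 and 0.56. S100A8 + LLC was 9.45-fold above HBSS + LLC, rank 4 of 98, and at least 6.15-fold above S100A8 + vehicle. The former was at least 2.64-fold with the cap at 35 cycles. Every group but HBSS + vehicle and S100A8 + LLC was above 35 cycles. With the cap, the log2 value in S100A8 + vehicle was limited to at most 0.20 against HBSS + vehicle, and that of S100A8 + LLC against S100A8 + vehicle to at least -0.38, so neither direction is fixed without the values above 35 cycles.

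The Ct of *MMP-9* minus that of *MMP-10* was -9.62, -15.2 or lower, -13.8 and -11.0, the second being a bound because *MMP-10* was at the limit. The difference between the 2 transcripts thus moved by at least 5.62 cycles, or 49.2-fold, with no reference involved. Its lowest value rests on *MMP-10* at the limit, and the *MMP-10* means of S100A8 + vehicle and HBSS + LLC were both above 35 cycles. It was not ranked among the gene pairs, which hold only genes never at the limit.

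Other metalloproteinases of the panel, *MMP-2* (gelatinase A), *MMP-3* (stromelysin-1) and *MMP-13* (collagenase-3), and the metalloproteinase inhibitor *TIMP2* were read against the same reference. Of these 4 genes, none passed 2-fold in S100A8 + vehicle or S100A8 + LLC against HBSS + vehicle with the mean of both housekeeping assays. Of all genes, 27.8% were higher and 17.5% lower in the first, and 22.4% and 18.4% in the second. Under other references some passed. In S100A8 + vehicle, *MMP-13* was at 1.22 and *TIMP2* at 1.28 with the first assay, and *MMP-3* at -1.04 with the second. In S100A8 + LLC, *TIMP2* was at -1.64 with the second assay and -1.505 with the panel median. *MMP-2* was 2.36-fold lower in HBSS + LLC than in HBSS + vehicle, and S100A8 + LLC lay 2.31-fold above HBSS + LLC. Over the 4 references the first of these ranged from -2.84 to 0.36 on the log2 scale, turning with the first housekeeping assay, and the second from 0.35 to 2.07, past 2-fold under 2 of them. *TIMP2* was 2.91-fold lower in S100A8 + LLC than in S100A8 + vehicle, past 2-fold under each of the 4. The medians of these 4 log2 fold changes were 0.28, -0.47 and 0 for S100A8 + vehicle, HBSS + LLC and S100A8 + LLC against HBSS + vehicle. Relative to its relative *MMP-3*, the Ct of *MMP-10* was higher by 10.8 cycles in HBSS + vehicle, by 13.2 or more in S100A8 + vehicle, by 14.1 in HBSS + LLC and by 11.2 in S100A8 + LLC.

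The genes of the stromelysins and of collagenase-3 lie on mouse chromosome 9, and their promoters are shown because *MMP-10* passed 2-fold in S100A8 + vehicle and HBSS + LLC against HBSS + vehicle while *MMP-3* and *MMP-13* did not with the mean of both housekeeping assays. The last 120 bases before the start are printed as above, all on the plus strand of GRCm38.p6, at chr9:7502222-7502341 for *MMP-10*, chr9:7445702-7445821 for *MMP-3* and chr9:7272394-7272513 for *MMP-13*. Capitals mark TATAAA and the AP-1 motif, TGAGTCA or its reverse complement TGACTCA, and in *MMP-13* also ACCACA, the reverse complement of the RUNX motif. The AP-1 motif starts 63, 46 and 35 bases before the transcription start in this order, and TATAAA 29, 7 and 16 bases before it.
MMP-10: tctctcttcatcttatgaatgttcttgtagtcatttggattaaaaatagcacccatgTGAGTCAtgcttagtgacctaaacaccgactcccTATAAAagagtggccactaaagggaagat
MMP-3: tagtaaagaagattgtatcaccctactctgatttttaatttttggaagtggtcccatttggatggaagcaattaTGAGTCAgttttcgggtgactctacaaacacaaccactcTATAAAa
MMP-13: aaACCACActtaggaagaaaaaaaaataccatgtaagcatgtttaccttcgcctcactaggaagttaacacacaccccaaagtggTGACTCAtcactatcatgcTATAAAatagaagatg
All 3 promoters thus hold both TATAAA and an AP-1 motif by letters, at different distances from the start, beside the different fold changes of the genes. Among the members, 5 of 6 had a promoter in the table, with *MMP-9* the exception, and no further match of the 3 motifs was found in *KRT5* or *KRT14*.

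Counted over the 6 members, 1 was more than 2-fold higher (*MMP-9*) and 4 lower (*KRT5*, *COL10A1*, *COL11A1* and *MMP-10*) in S100A8 + vehicle than in HBSS + vehicle. Of all 97 genes with a computed fold change there, 27.8% were higher and 17.5% lower. The member counts were the same with each housekeeping assay alone, where 49.5% of the genes were higher and 11.3% lower with the first, and 16.5% and 30.9% with the second. The median log2 fold change was -1.92 over the members and 0.34 over all genes.

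In HBSS + LLC against HBSS + vehicle, no member was higher and 4 were lower (*KRT5*, *KRT14*, *COL10A1* and *MMP-10*), beside 26.5% higher and 21.4% lower among the 98 genes. The median was -1.35 over the members and -0.18 over all genes. With the first housekeeping assay alone, 2 members were higher, *COL11A1* and *MMP-9*, and 2 lower, *KRT5* and *MMP-10*, beside 62.2% and 4.08% of the 98 genes, since a change of reference moves all genes alike. With the second alone, no member was higher and 5 were lower, beside 14.3% and 63.3%.

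In S100A8 + LLC against HBSS + vehicle, *KRT14* and *MMP-9* were higher and *KRT5* and *COL10A1* lower, at 2 each, beside 22.4% and 18.4% of the 98 genes. With the first housekeeping assay alone, 2 were higher and 1 lower, beside 37.8% and 8.16%. With the second, 1 was higher and 3 lower, beside 16.3% and 48.0%. The medians were -0.36 over the members and -0.22 over all genes. These 3 comparisons share HBSS + vehicle, so a high value of a member in that group lowers it in all of them.

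Against HBSS + LLC, 2 members were higher in S100A8 + LLC, *KRT14* and *MMP-10*, and none was lower, beside 11.2% higher and 15.3% lower among the 98 genes. The median was 0.66 over the members and -0.06 over all genes. With the second housekeeping assay alone, 4 members were higher, as *KRT5* and *MMP-9* then passed 2-fold too, beside 39.8% of the 98 genes. With the first alone, *KRT14* and *MMP-10* were the 2 members higher, beside 5.10%, and none was lower, beside 44.9%.

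Against S100A8 + vehicle, 3 members were higher in S100A8 + LLC (*KRT14*, *COL11A1* and *MMP-10*) and *MMP-9* was lower, beside 12.2% higher and 29.6% lower among the 98 genes. This comparison depended least on the reference, since the first housekeeping assay fell by 0.35 and the second by 0.55 cycles between the groups. *COL10A1* was 1.92-fold higher, with log2 values from 0.77 to 1.04 over the references, and *COL11A1* was 2.41-fold higher. With Ct values capped at 35 the log2 value of *COL11A1* was limited to at least -0.10. The median was 1.11 over the members and -0.44 over all genes.

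**Figure D3:**
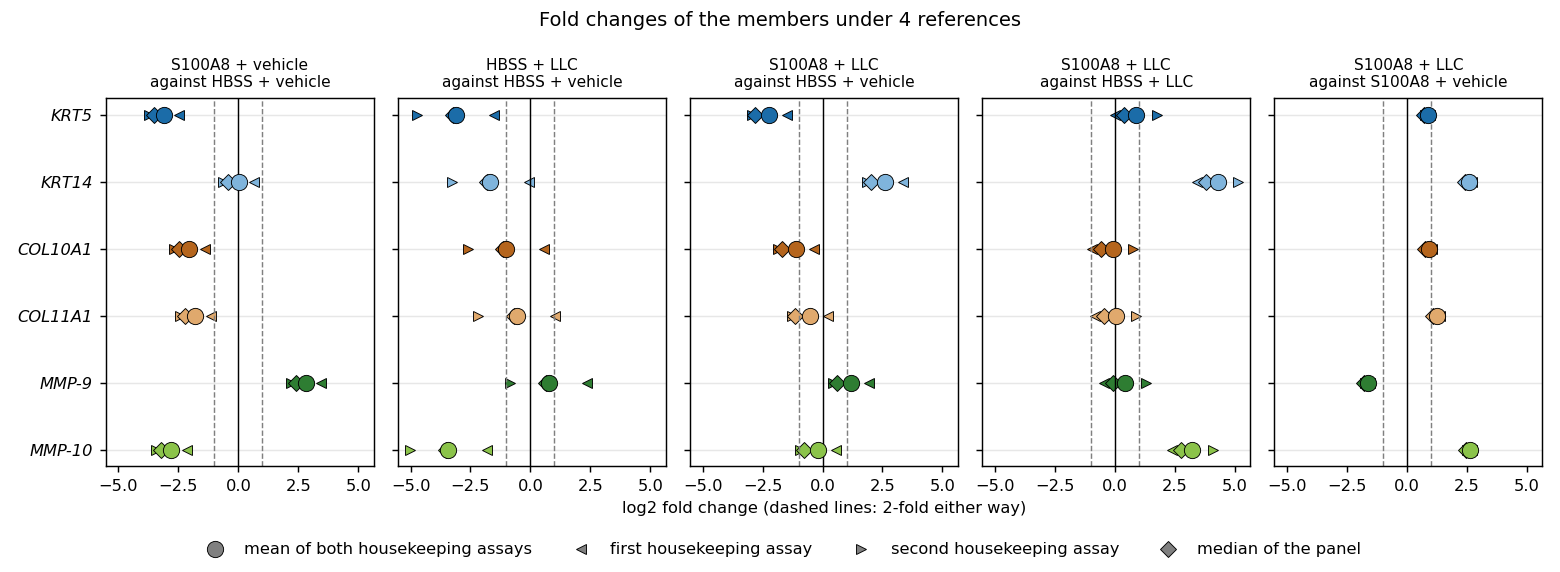
Log2 fold change of each member in the 5 comparisons under 4 references, with the dashed lines at 2-fold either way and no error bars because each group is 1 mean. In HBSS + LLC against HBSS + vehicle the values of a member spread over 3.20 log2 units, and in S100A8 + LLC against S100A8 + vehicle over 0.27.

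**Figure D4:**
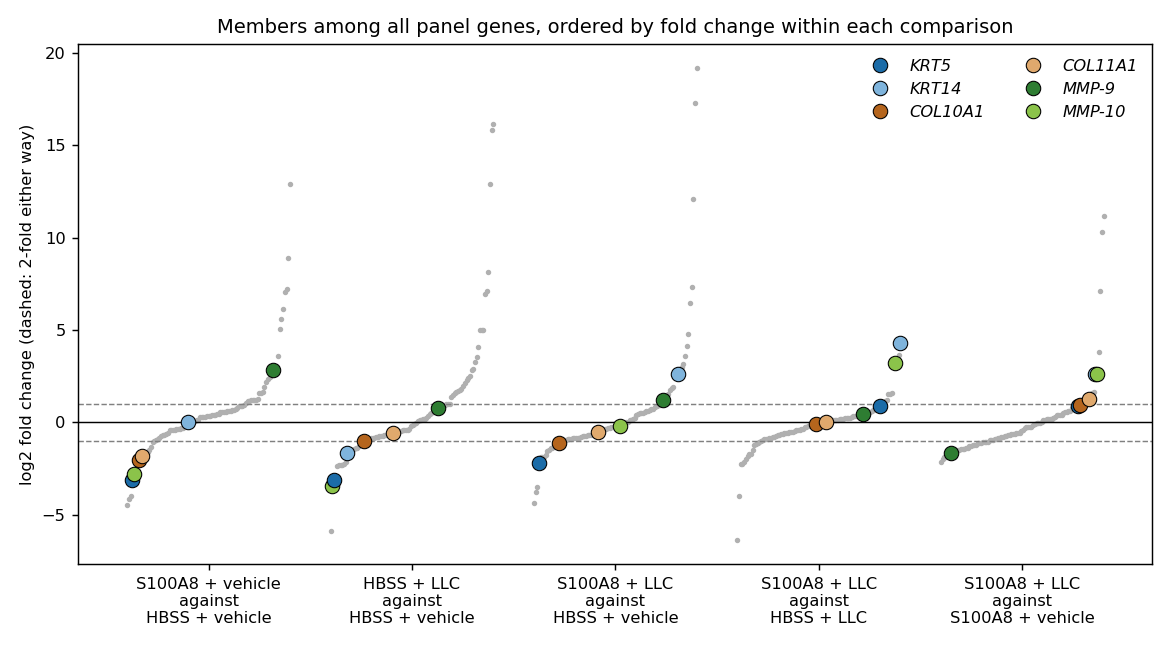
Log2 fold changes of all panel genes with a computed value, ordered from lowest to highest within each of the 5 comparisons, with the members in colour and the other genes in grey. KRT14 is the highest of the 98 genes in S100A8 + LLC against HBSS + LLC, and KRT5 and MMP-10 are near the low end in S100A8 + vehicle and HBSS + LLC against HBSS + vehicle.

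By the group means, the effect of S100A8 with LLC was unlike that without LLC for each member, in size or in direction. Each effect is 1 value and was not tested. The log2 effect with LLC minus that without was 3.99 for *KRT5*, 4.28 for *KRT14*, 1.96 for *COL10A1*, 1.84 for *COL11A1*, -2.39 for *MMP-9* and at least 6.04 for *MMP-10*. The median over 97 panel genes was -0.52. By these values, *MMP-10* ranked 2, *KRT14* 4 and *KRT5* 6 from the highest. Genes at the limit enter as bounds, so the ranks are not exact, and that of *MMP-10* could be higher. Each of the 6 differences kept its sign under the 4 references. Those of *KRT5*, *KRT14* and *MMP-10* also stayed above 2-fold. With the first housekeeping assay alone, those of *COL10A1* and *COL11A1* were 0.46 and 0.34. With the second alone, that of *MMP-9* was -0.89. With Ct values capped at 35, the difference was limited to at least 1.20 for *MMP-10* and at least 0.47 for *COL11A1*, so the rest of their size rests on values above 35 cycles.

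By pattern over the 4 groups, likeness was measured as the root mean square difference in log2 level after centring each gene on its mean, among the 93 genes never at the limit. The nearest gene to *COL10A1* was *COL11A1*, at 0.22, followed by the cytokine gene *IL-6* at 0.24. *COL11A1* was next nearest to *CCL-11*, an eosinophil chemokine, at 0.29. The distances of *COL11A1* include its mean of 36.4 cycles in S100A8 + vehicle. *KRT5* was nearest to *LCK*, a T cell kinase, at 0.54 and *CCL-2*, a monocyte chemokine, at 0.58. *KRT14* had no near neighbour, with *GPX1* (glutathione peroxidase) at 0.70 and *S100A4* at 0.72. *MMP-9* was nearest to *TGF-β1* at 0.38 and *GSTM* at 0.42. *MMP-10* was left out because 1 of its values was at the limit.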

How the data were processed

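Whole lung RNA (1.5 µg) was reverse-transcribed and measured by SYBR Green RT-qPCR. The authors deposited mean Ct values, entered here as a score without normalization, as 1 mean over 4 to 5 mice for each of 100 numbered assays and 4 groups. The labels name a LightCycler and the paper a QuantStudio machine. The authors also deposited fold changes, a ratio against HBSS + vehicle. These served only to identify assays and columns by their match to the gene list of the paper, within 0.1%, and are not reported. All 98 genes matched 1 assay each, and the 2 left over were taken as the housekeeping genes β-actin and β2M, which cannot be told apart. The control column was identified as the one whose Ct differences gave the deposited fold changes up to 1 factor per group.

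A fold change is 2 raised to minus the difference in ΔCt. A value against a group at 38 cycles is a bound, and no fold change was computed where both groups were at it. The members, the related genes (*MMP-2*, *MMP-3*, *MMP-13*, *TIMP2*), the markers (*CDH1*, *MUC1*, *RAGE*, *AGER*, *S100A8*, *S100A9*, *MKI67*, *VCAM-1*, *ICAM-1*) and the 2 nearest genes in pattern are named. The members were taken by name and the nearest genes by distance, and all lists were set with earlier results of these data known. Alternatives were 3 other references, Ct values capped at 35, thresholds of 1.5-fold and 3-fold, and limits of 35 and 30 cycles. Which pairs of assays to compare by Ct difference was chosen after seeing the data. Calculations were first tested on simulated Ct data. Python 3.11.15 and matplotlib 3.10.9 were used. Protein sequences were not used here.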

Additional observations from a re-analysis of the deposited data

Results flagged for a closer look

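*MMP-10* and *KRT14* had effects of more than 2-fold in opposite directions in different groups, with the mean of both housekeeping assays as reference. With S100A8, *MMP-10* was at least 6.96-fold lower in lungs without LLC and 9.45-fold higher in lungs with LLC, a difference of at least 6.04 on the log2 scale. With LLC, it was 10.7-fold lower in HBSS-treated lungs and at least 6.15-fold higher in S100A8-treated lungs, which is the same difference of at least 6.04. For *KRT14*, LLC went with a 3.20-fold lower level in HBSS-treated lungs and a 6.06-fold higher level in S100A8-treated lungs, a difference of 4.28. With Ct values capped at 35, the opposite directions of *MMP-10* could not be resolved. Its log2 value was then limited to at most 0.20 with S100A8 in lungs without LLC and to at least -0.38 with LLC in S100A8-treated lungs, and the difference of the S100A8 effects to at least 1.20. For *KRT14*, the log2 value with LLC in HBSS-treated lungs was -0.08 with the first housekeeping assay alone, and the difference stayed above 2-fold, at 2.78. These differences were not tested, because each group is 1 mean.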

How the results depend on the processing

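With 1 mean per group, no spread between mice, no paired fit and no omission of a replicate was possible, and weak signals above 30 cycles limit *COL11A1* and *MMP-10* most. Of 30 fold changes of the members, 20 kept both direction and side of 2-fold when only the first housekeeping assay served as reference, 22 when only the second did, 25 with the panel median and 26 with Ct values capped at 35. The sign turned for 6, 3 and 3 of them with these references. Among those past 2-fold before or after, the first assay turned *COL10A1* to 0.58 and *COL11A1* to 1.03, both in HBSS + LLC against HBSS + vehicle. Under the cap a later mean is only a limit, and 3 values no longer had a fixed direction. These were *MMP-10* in S100A8 + vehicle against HBSS + vehicle, at most 0.20, and *MMP-10* and *COL11A1* in S100A8 + LLC against S100A8 + vehicle, at least -0.38 and at least -0.10. The 4 members lower in S100A8 + vehicle became 2 with the cap (15.5% of all genes), 2 among genes up to 35 cycles (15.1%) and 1 among genes up to 30 cycles (11.1%), where percentages here and below are the share of panel genes past the same threshold. For HBSS + LLC against HBSS + vehicle, the members higher went from 0 to 2 with the first assay (62.2%) and 1 at 1.5-fold (36.7%), and those lower from 4 to 2 with the first assay (4.08%), 5 with the second (63.3%), 3 at 3-fold (13.3%), 3 up to 35 cycles (22.5%) and 2 up to 30 cycles (20%). For S100A8 + LLC against HBSS + vehicle, the 2 higher became 1 with the second assay (16.3%), 1 with the panel median (17.3%) and 1 at 3-fold (17.3%), and the 2 lower became 1 with the first assay (8.16%), 1 at 3-fold (8.16%), 3 with the second assay (48.0%) and 3 with the panel median (41.8%). Against HBSS + LLC, the 2 higher became 4 with the second assay (39.8%), 3 at 1.5-fold (18.4%), 1 up to 35 cycles (9.68%) and 0 up to 30 cycles (6.17%). Against S100A8 + vehicle, the 3 higher became 1 with the cap (7.14%), 4 with the first assay (15.3%), 5 at 1.5-fold (22.4%), 2 at 3-fold (7.14%), 1 up to 35 cycles (5.62%) and 0 up to 30 cycles (2.67%). Where a limit on cycles lowered a count, fewer genes entered it, and a gene can be left out because it was lower in 1 group. In S100A8 + vehicle, 4 members remained up to 35 cycles and 2 up to 30 cycles. The cause was not tested elsewhere.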

Other observations

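The marker genes of other cell types that the members' account does not use were *MKI67*, of dividing cells, and *VCAM-1* and *ICAM-1*, of endothelium. Of the 9 marker assays, *RAGE* and *AGER* name the same receptor. The counts here use the mean of both housekeeping assays as reference. With S100A8 alone, 4 of the 9 were more than 2-fold above HBSS + vehicle, beside 27.8% of all genes. Of these, *S100A8* and *S100A9* passed under 2 of the 4 references. With LLC alone 2 were higher, beside 26.5%, and with both 2 were, beside 22.4%. None was more than 2-fold below HBSS + vehicle, beside 17.5%, 21.4% and 18.4% of the genes. *MKI67* had log2 values of -0.39, -0.46 and -0.21, and *VCAM-1* of -0.58, 0.20 and -0.35. All of these depended on the reference. *MKI67* ranged from -1.03 to 0.25 with S100A8 alone, from -2.06 to 1.14 with LLC alone and from -0.95 to 0.53 with both. *VCAM-1* ranged from -1.22 to 0.06, from -1.40 to 1.80 and from -1.09 to 0.39 in the same order. *ICAM-1* was higher by 12.88, 12.90 and 12.07 on the log2 scale, past 2-fold under each of the 4 references, from a Ct of 32.5 in HBSS + vehicle. From S100A8 + vehicle to S100A8 + LLC, 5 of the 9 assays were lower, *RAGE* and *AGER* among them, beside 29.6% of the 98 genes. None was higher, beside 12.2%.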
